A study of Mus musculus with 3 samples.

Results

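Matricellular proteins are secreted into the extracellular matrix but, unlike collagens, mainly signal to cells rather than bear load. Thrombospondins, tenascin-C, periostin, SPARC and osteopontin bind integrins, other cell surface receptors, growth factors and matrix fibers, and many are known for being made where tissue is injured or remodeled. Fibronectin is a structural glycoprotein that cells assemble into fibrils through integrins, and it carries binding sites for tenascin-C, periostin, collagens and thrombospondins. In skeletal muscle the satellite cell, or muscle stem cell (MuSC), lies between the fiber and its basement membrane, and these proteins belong to the matrix around it.

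The 8 genes considered were Thbs1, Thbs2, Thbs3, Tnc, Postn, Sparc, Spp1 and Fn1, chosen by name and read from the probe sets that the platform annotation assigns to one of them alone. Of the 8 genes, 7 had such a probe set, among 18193 genes with a value. Spp1, which encodes osteopontin, had none in the annotation used here and was not analysed. The 7 genes had 14 probe sets, and 1 more set, which names Thbs1 together with Pald1, was left out of the values. The set of highest mean signal stands for a gene, and the others serve as a check.

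All cells came from wildtype C57BL/6 mice of 8 weeks and had been FACS-sorted as CD34+ α7 integrin+ cells from enzyme-digested limb muscle. The sort described by the study also excluded cells positive for CD45, CD11b, CD31 or Sca1. Fresh MuSC, or fresh cells, were taken directly after sorting. MuSC −OSM (the −OSM culture) were kept for 3 days in 10% FBS, and MuSC +OSM (the +OSM culture) in the same way with 100 ng/mL Oncostatin M (OSM), a cytokine of the interleukin-6 family. The serum share is that of the labels, and the methods of the study give another for its standard culture. The comparisons asked which genes differ with OSM in culture and which differ between culture and the freshly sorted state.

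Each condition is represented here by 1 Affymetrix array, for 3 arrays in all. The study describes its OSM expression data as a mean of replicates, and any further arrays were not analysed here. No difference therefore has a replicate check, no test was possible, and precision is limited by how few arrays there are. Values are MAS5 signals, a linear intensity per probe set that the authors scaled to a 2% trimmed mean of 200 on every array. Signals below 40, the median over all probe sets and arrays, were raised to 40 before a ratio was taken. A fold is written as "at least" where the lower signal lay under this floor, and a gene counted as measured where 1 of the arrays compared lay above it. As a yardstick within the arrays, the log2 ratios of other probe sets of a gene were set against that of its main set. For the +OSM over the −OSM culture they differed by a median of 0.33 and by 0.89, or 1.86-fold, at the 90th percentile, over 7148 sets above the floor. For fresh cells over the −OSM culture the 90th percentile was 2.89-fold. These spreads do not cover differences between cultures or mice. Socs3 and Osmr, known targets of OSM signaling, had signals of 129 and 65 in the −OSM culture and of 8400 and 2063 in the +OSM culture. In fresh cells Socs3 had 23588, which was 2.81-fold above the +OSM culture, and Osmr had 395.

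Of the 7 genes, 5 had a signal at least 2-fold higher with OSM than without it, and 0 were at least 2-fold lower. Over all 11271 genes measured in this comparison, 6.07% were at least 2-fold higher and 4.39% at least 2-fold lower. Postn, Tnc, Fn1, Thbs2 and Thbs3 were the higher genes, while Thbs1 and Sparc lay within 2-fold. The median log2 ratio of the 7 genes was 1.72, against -0.01 over all measured genes, and the genes ran from -0.16 to 2.11. Postn, Thbs2 and Thbs3 are also in the quiescence gene list that the study chose in part on OSM-treated cells, so their direction is not independent of that choice.

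Postn encodes periostin, which binds integrins and promotes collagen cross-linking. It had a signal of 7821 in fresh cells, 674 in the −OSM culture and 2908 in the +OSM culture. The lowest of these was the culture without OSM. With OSM the signal was 4.31-fold higher, the 114th highest ratio of 11271 genes, and in fresh cells it was 11.6-fold higher than in the −OSM culture. The signal of the +OSM culture was 2.69-fold below that of fresh cells. Postn has 1 probe set, so no other set checks these values.

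Tnc, which encodes the hexameric glycoprotein tenascin-C, had another order. Its signal was 229 in fresh cells, 398 in the −OSM culture and 1500 in the +OSM culture, so that it was highest in the culture with OSM and lowest directly after sorting. It was 3.77-fold higher in the +OSM culture than in the −OSM culture and 6.55-fold higher than in fresh cells. The difference between fresh cells and the −OSM culture, 1.74-fold, was below the 90th percentile of the spread between probe sets. Its other probe set had 4, 16 and 216 in the same order, above the floor in the +OSM culture alone, and gave a ratio of at least 5.40-fold over either array.

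Fn1 encodes fibronectin. Its main probe set had a signal of 4402 in fresh cells, 790 in the −OSM culture and 2764 in the +OSM culture. The culture without OSM was again lowest, with the +OSM culture 3.50-fold and fresh cells 5.57-fold above it. A second, dimmer set had 100, 63 and 226. Both sets gave nearly the same ratio with OSM, 3.50-fold and 3.59-fold. They parted for fresh cells, which stood only 1.59-fold above the −OSM culture by the second set. Against fresh cells, the +OSM culture was 1.59-fold lower by the main set and 2.26-fold higher by the second, so the order of these arrays is not settled for Fn1.

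Of the thrombospondins, Thbs2 and Thbs3 were among the higher genes and Thbs1 was not. Thbs2 encodes a trimeric thrombospondin known for restraining blood vessel growth and for a role in collagen fibril assembly. It had 655 in fresh cells, 163 in the −OSM culture and 537 in the +OSM culture, which put fresh cells and the +OSM culture within 1.22-fold of each other and the −OSM culture 4.02-fold and 3.29-fold below them. The other 2 sets of Thbs2 had 659, 135 and 427 and 582, 55 and 534, in the same order of arrays. All 3 sets were lowest in the −OSM culture, and the ratio with OSM ran from 3.16-fold to 9.71-fold among them.

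Thbs3, a pentameric thrombospondin, had 252 in fresh cells, 3 in the −OSM culture and 89 in the +OSM culture. Since the signal without OSM lay under the floor, it was at least 2.23-fold higher in the +OSM culture and at least 6.30-fold higher in fresh cells. Its signals were low and it has 1 probe set, which makes it the least secure of the higher genes. Thbs1, the trimeric thrombospondin known for activating latent TGF-β, had 1111 in fresh cells, 1517 in the −OSM culture and 1810 in the +OSM culture. The arrays lay within 1.63-fold of each other. Its other set had 317, 513 and 472, so the sets gave opposite signs with OSM, at log2 ratios of 0.25 and -0.12, and both were lowest in fresh cells. The set that also names Pald1 had 2728, 4708 and 4295.

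Sparc encodes SPARC, or osteonectin, a collagen-binding glycoprotein. Its main set had 10392 in fresh cells, 7730 in the −OSM culture and 6896 in the +OSM culture. With OSM it was 1.12-fold lower, and the fresh cells were 1.34-fold above the −OSM culture. A second set had 1913, 1334 and 2238 and was 1.68-fold higher with OSM, and the dimmest, near the floor, had 51, 54 and 42. No direction with OSM can be given for Sparc from these sets, although all of its ratios lay within 2-fold.

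**Figure D1:**
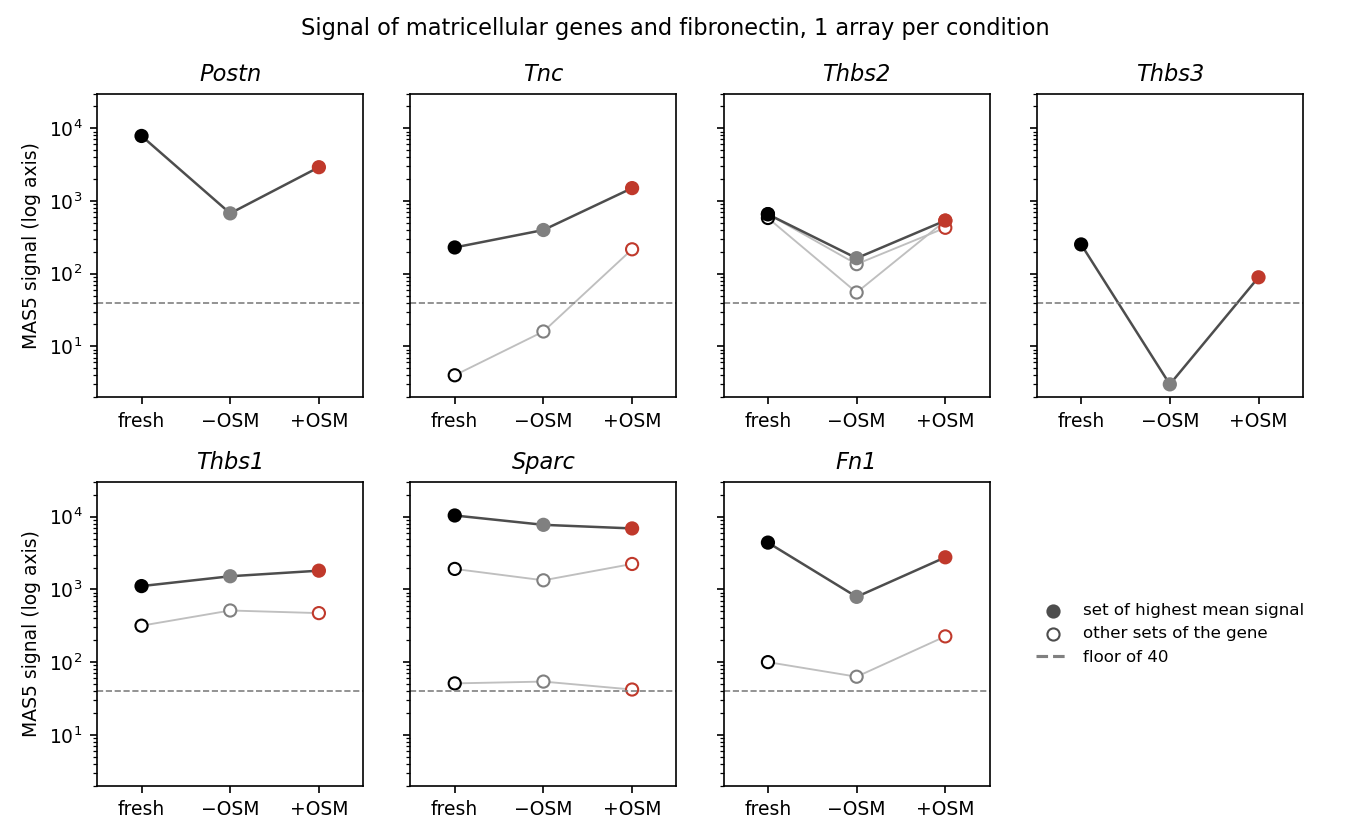
MAS5 signal on a log axis for each gene in fresh cells (black), the −OSM culture (gray) and the +OSM culture (red), 1 array each, with filled points and dark lines for the probe set of highest mean signal, open points for other sets, and the floor of 40 dashed. Postn, Thbs2, Thbs3 and Fn1 have their lowest signal in the −OSM culture, Tnc climbs to 1500 in the +OSM culture, and Thbs1 and Sparc stay nearly level.

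In fresh cells, 4 of the 7 genes were at least 2-fold higher than in the −OSM culture and 0 were lower, against 20.4% of 12755 measured genes higher and 15.0% lower. The higher genes were Postn, Thbs3, Fn1 and Thbs2, with log2 ratios of 3.54, 2.66 or more, 2.48 and 2.01. Tnc at -0.80, Thbs1 at -0.45 and Sparc at 0.43 lay within 2-fold. After centring the arrays on their medians, Tnc and Thbs1 passed it, at -1.36 and -1.01, beside 28.1% of all genes lower. As deposited, the median of the 7 genes was 2.01, and that of all measured genes was 0.14. In the +OSM culture against fresh cells, 1 gene, Tnc, was at least 2-fold higher and 2 genes, Thbs3 at 2.83-fold and Postn at 2.69-fold, were lower. With arrays centred on their medians neither was a lower call, at log2 ratios of -0.77 and -0.70, Thbs1 became a higher one at 1.43, and the median of the 7 genes was 0.14. The shares of all 12483 genes were 13.8% higher and 17.2% lower as deposited. After centring, 33.7% of measured genes were higher and 8.23% lower. The median log2 ratio as deposited was -0.59 for the 7 genes and -0.14 for all. The comparisons share arrays in pairs, so their ratios are not independent of each other.

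**Figure D2:**
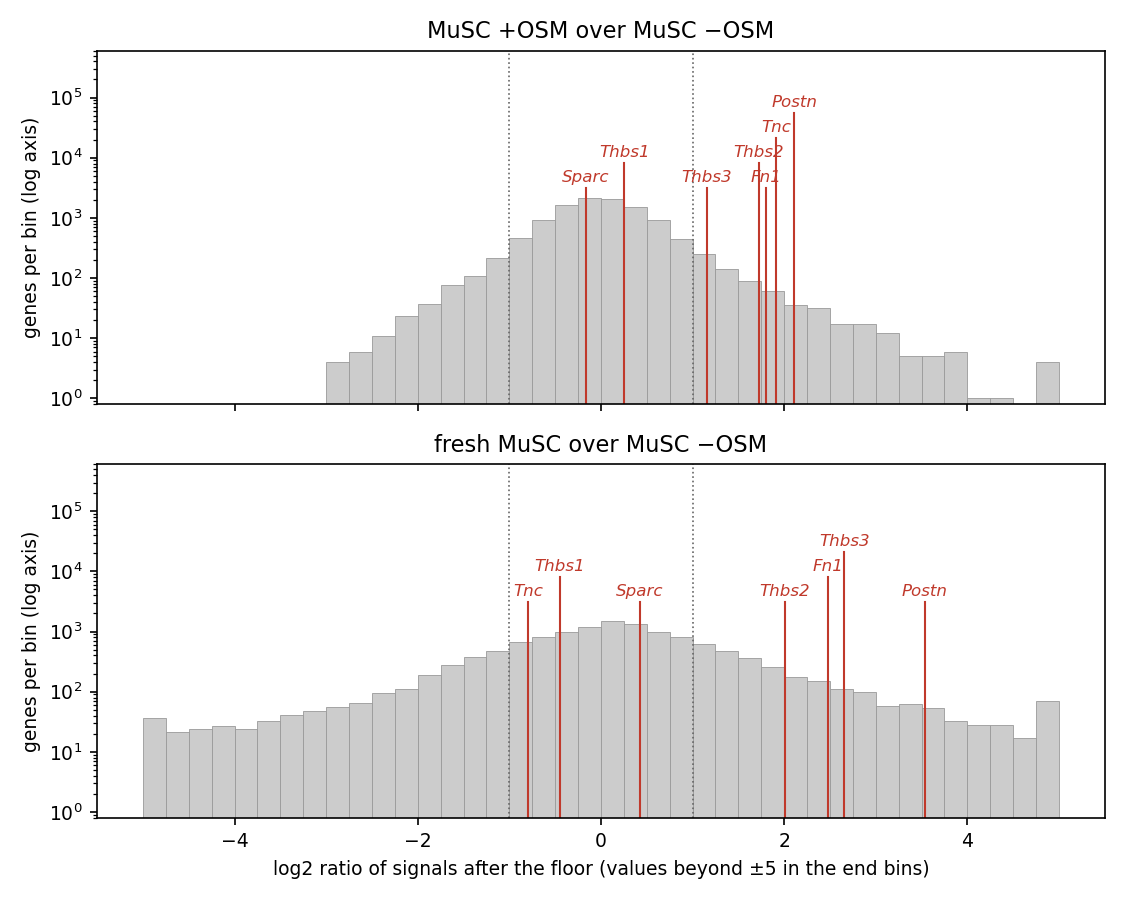
Number of measured genes, on a log axis, by log2 ratio in bins of 0.25 for the +OSM over the −OSM culture (top, 11271 genes) and fresh cells over the −OSM culture (bottom, 12755 genes), with red lines at the matricellular genes and Fn1 and dotted lines at 2-fold. At the top 4 of the red lines stand between 1.72 and 2.11 and that of Thbs3, a lower bound, at 1.15, while at the bottom Tnc lies at -0.80, on the other side of 0 from Postn at 3.54.

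The fresh array differed from the cultured ones in ways that run beside these values. Its 3′ to 5′ signal ratio of β-actin control sets, a sign of RNA integrity, was 2.35, against 1.40 and 1.41 in the −OSM and +OSM cultures. For Gapdh control sets it was 1.36 in fresh cells, 1.14 without OSM and 0.905 with it. Markers of other cell types were also high on it. Of 9 fibroblast markers on the array 9 lay above the floor in fresh cells, 5 in the −OSM culture and 8 in the +OSM culture, with summed signals of 34529, 1244 and 3246. Of 6 tenocyte markers 6, 2 and 2 lay above it in this order, with sums of 7842, 535 and 638. Of these markers, 5 were at least 2-fold higher in fresh cells than in the −OSM culture and 1, Scx, was lower. Of all genes, 20.4% were higher and 15.0% lower in this comparison. Scx had 48, 327 and 104, and Fmod, the other tenocyte marker measured between the cultures, had 4308, 153 and 482. For 3 Schwann cell markers the sums were 4287, 104 and 211. Leukocyte markers summed to 1412, 249 and 268, of which Lyz2 alone gave 1204 in fresh cells while Ptprc, which defines leukocytes, had 1, 2 and 7. Endothelial markers summed to 1138, 91 and 80, with Tek at 791, 42 and 25, Cdh5 at 268, 6 and 22 and Pecam1 at 4, 4 and 2. Platelet markers summed to 199, 203 and 167. Pericyte and smooth muscle markers summed to 9554, 19610 and 14243, most of it Acta2 at 6543, 19053 and 13114. Of these 5 markers 3 were nevertheless at least 2-fold higher in fresh cells than without OSM, beside 20.4% of all genes. These were Rgs5 at 1687 against 35, Pdgfrb at 661 against 139 and Myh11 at 301 against 2. None of the markers was at 0. Satellite cell markers were present, with 8 of 8 above the floor in fresh cells, Pax7 at 4006 and Calcr at 2562, and 6 of 8 in either culture, where Pax7 had 282 without OSM and 431 with it. Of these 8 markers, 6 were at least 2-fold higher in fresh cells than in the −OSM culture and 1, Itga7, was lower. The shares of all genes were again 20.4% higher and 15.0% lower. Itga7, which encodes the α7 integrin used for sorting, had 499, 1808 and 1238. Myf5 had 7016, 561 and 1855. It was 3.31-fold higher with OSM, and the other 5 measured lay within 2-fold.

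Between the cultures, 5 of 8 measured fibroblast markers had at least 2-fold higher signals with OSM, where 6.07% of all genes did. These were Dcn, Col1a1, Col1a2, Fap and Thy1, of which 3, Dcn, Col1a1 and Col1a2, encode matrix proteins themselves. The other 3, Pdgfra, Lum and Dpt, lay within 2-fold, with Lum at 26 without OSM and 43 with it, and Dpt at 76 and 99. Dcn, which encodes the proteoglycan decorin, had 32 without OSM and 373 with it, at least 9.32-fold higher. Pdgfra, which defines fibroblasts of muscle, had 17 without OSM, under the floor of 40, and 43 with it, just above it. Its ratio was at least 1.075-fold, so no rise past 2-fold can be given. Thy1 had 64 without OSM and 291 with it. Among pericyte markers Pdgfrb, at 139 without OSM and 738 with it, was 5.31-fold higher, and the other 3 measured lay within 2-fold. Whether fibroblasts or other cells contributed to the signals of Postn, Fn1, Tnc, Thbs2 or Thbs3 was not tested. More cells of a type and more RNA per cell cannot be told apart in such bulk samples.

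Other matricellular genes were read from a list of 23 genes, of which 14 were measured in the +OSM over the −OSM culture. With OSM 6 of these were at least 2-fold higher, 8 lay within 2-fold and 0 were lower, and their median log2 ratio was 0.56. Of all genes 6.07% were higher and 4.39% lower. The count of 6 was 4 at a 3-fold threshold or with the floor at the 75th percentile, and 9 with the floor at the 25th. Of all genes 2.26%, 4.28% and 8.05% were higher at these settings, in this order. Mgp, an inhibitor of calcification, had signals of 7021 in fresh cells, 594 in the −OSM culture and 4419 in the +OSM culture and was 7.44-fold higher with OSM. Tgfbi, a relative of periostin, had 1942, 93 and 492. Ecm1 had 48, 186 and 698 and Ccn5, of the CCN family, had 23, 77 and 265, both highest with OSM and lowest in fresh cells, the order also seen for Tnc. Fstl1, a SPARC relative, had 3795, 552 and 1461, and Smoc1, another SPARC relative, was at least 2.75-fold higher with OSM. The galectins Lgals1 and Lgals3 lay within 2-fold, at log2 ratios of -0.56 and -0.92. In fresh cells 13 of 18 measured genes of this list were higher than in the −OSM culture and 4 were lower. Of all genes 20.4% were higher and 15.0% lower in that comparison. Thbs4, the pentameric thrombospondin of tendon and muscle, was above the floor in fresh cells alone, at 4702 against 12 in the −OSM culture and 36 in the +OSM culture. Sparcl1, the closest relative of Sparc, had 1804, 2 and 1, whereas Lgals3 had 391, 9896 and 5242.

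Of 15 measured receptor genes, 2 had at least 2-fold higher signals with OSM and 1 a lower one, where 6.07% and 4.39% of all genes did. At a 3-fold threshold 1 was higher, and 0 were lower at that threshold, with the floor at the 75th percentile of signals or by the median over probe sets. Of all genes 2.26% were higher and 1.21% lower at the 3-fold threshold. Sdc1, the heparan sulfate carrying syndecan-1, had 337 in fresh cells, 693 in the −OSM culture and 3465 in the +OSM culture, the largest ratio with OSM among the measured receptors, at a log2 ratio of 2.32. Itgb5, the integrin β5 subunit of a vitronectin and periostin receptor, had 515, 259 and 587. Itga4, a fibronectin receptor subunit, had 120, 89 and 19 and was the lower gene, at least 2.23-fold. Subunits of the classical fibronectin receptor lay within 2-fold with OSM, with Itgb1 at a log2 ratio of 0.87 and Itga5 at 0.67, and the αv subunit Itgav at -0.18. In fresh cells 7 of 18 receptor genes were higher than in the −OSM culture and 3 were lower, beside 20.4% and 15.0% of all genes. With arrays centred on their medians the receptors split evenly, with 5 higher and 5 lower, beside 11.9% and 28.1% of all genes. A floor at the 75th percentile left 4 higher and 2 lower, beside 16.0% and 16.5% of all genes. Sdc4, syndecan-4, a fibronectin coreceptor and a satellite cell marker, had 10047, 862 and 1368, so it was 11.7-fold higher in fresh cells.

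Among 14 measured partners in matrix assembly, 9 had at least 2-fold higher signals in the +OSM culture and 0 lower ones, and the median log2 ratio was 1.70. By the median over probe sets 5 were higher, where 3.86% of all genes were. By the main sets 6.07% of all genes were higher and 4.39% lower. In fresh cells 11 were higher than in the −OSM culture and 1 was lower, beside 20.4% and 15.0% of all genes. Bmp1, the procollagen C-proteinase, had 809 in fresh cells, 65 in the −OSM culture and 570 in the +OSM culture. Fbln2, a fibronectin-binding fibulin, had 127, 62 and 741, and Col12a1, a fibril-associated collagen, had 645, 372 and 2460. Lox, the collagen cross-linking enzyme, had 555, 1475 and 7247, the order also seen for Tnc. The list was written with the values of several of its genes known, so its count is a description.

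**Figure D3:**
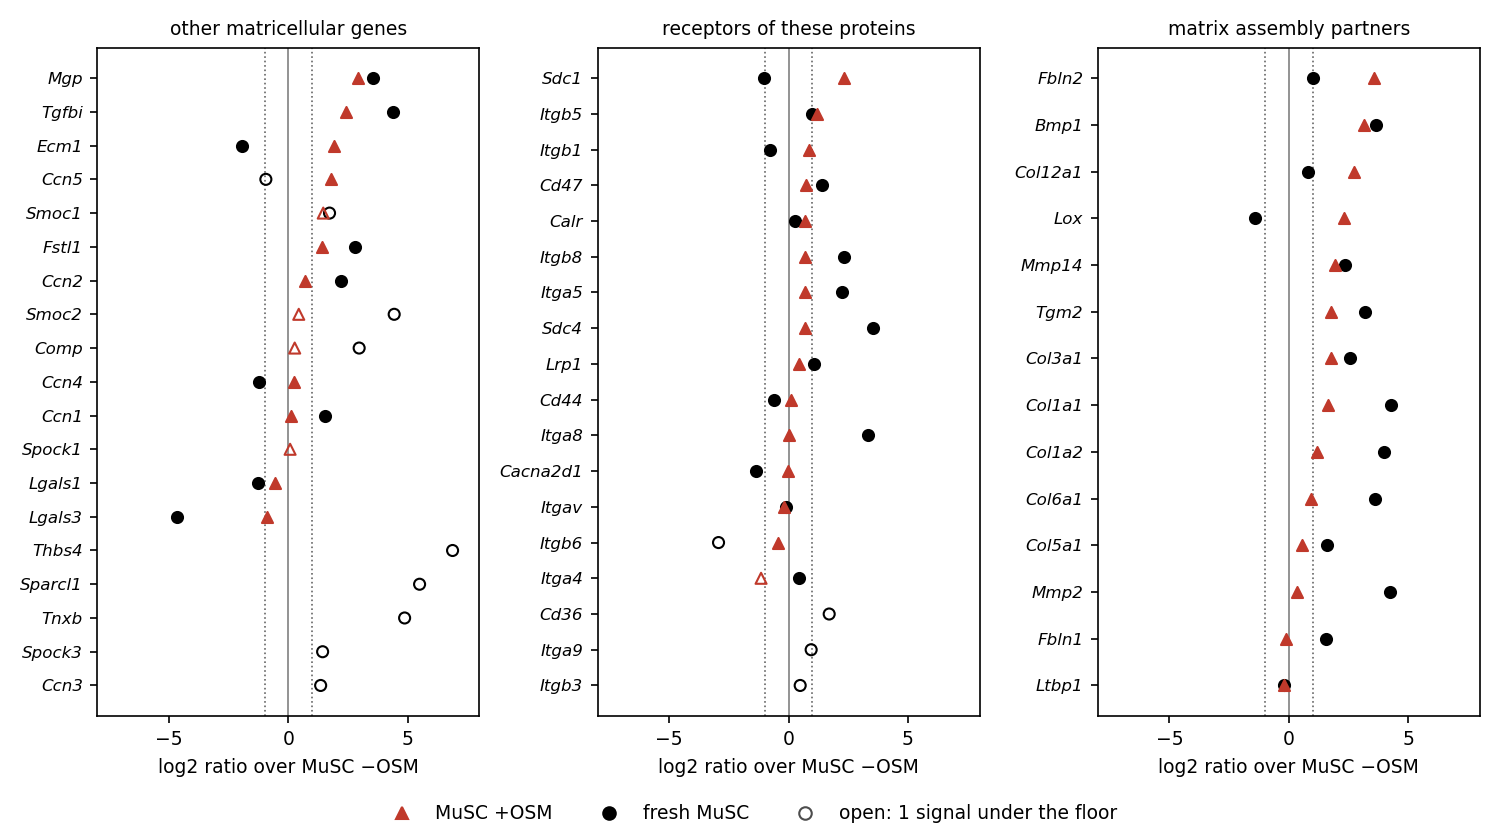
Log2 ratio to the −OSM culture of other matricellular genes, receptors and matrix assembly partners that were measured, with the +OSM culture as red triangles and fresh cells as black circles, open where 1 of both signals lay under the floor, and dotted lines at 2-fold. Sdc1 at 2.32 and Itgb5 at 1.18 are the only receptors right of the upper dotted line with OSM, whereas 9 of the 14 assembly partners lie there, or 5 by the median over probe sets, which is not plotted.

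The genes with the nearest pattern were found by the distance between log2 ratios to the −OSM culture in the +OSM culture and in fresh cells, over 3 arrays and 7399 genes above the floor on all of them. Nearest to Fn1 was Col3a1, the chain of type III collagen, at a distance of 0.09, followed by Trappc12 at 0.12 and Tagln2 at 0.13. Nearest to Postn were Ackr3, Tmeff2 and Lifr, at 0.25, 0.26 and 0.27, with 0 genes within 0.25. Nearest to Tnc was Itsn1 at 0.18, the single gene within 0.25, then B4galt5 and Zfand4. Thbs2 was nearest to Slc2a13 at 0.13, Ddit4 at 0.15 and Loxl3, a lysyl oxidase, at 0.17. Thbs1 and Sparc had 368 and 311 genes within 0.25, the nearest being Taf2, Commd5 and Adh5 for Thbs1 and Rps26, Stau1 and Tsc1 for Sparc. With so few arrays many genes lie near any pattern close to 0.

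Promoter sequence is shown for the higher genes held in the RefSeq table used here, and for Sparc, which differed little, so that both can be read side by side. The table (build GRCm38.p6) holds windows for 6 of the 8 genes. The 250 bases before a transcript start are given 5′ to 3′ on the gene's strand. They lie at chr4:64047016-64047265 (minus strand) for the outer start of Tnc, chr17:14694263-14694512 (minus) for Thbs2, chr3:89214930-89215179 (plus) for Thbs3 and chr11:55420081-55420330 (minus) for Sparc. For Postn they lie at chr3:54359017-54359266 (plus), before the outer start, and at chr3:54360857-54361106 (plus), before an inner one. Capitals mark TATAAA, read on both strands. The STAT motif TTCNNNGAA, the AP-1 motif TGANTCA and the TEAD motif GGAATG were searched in the same way and matched in none of these windows.
Tnc: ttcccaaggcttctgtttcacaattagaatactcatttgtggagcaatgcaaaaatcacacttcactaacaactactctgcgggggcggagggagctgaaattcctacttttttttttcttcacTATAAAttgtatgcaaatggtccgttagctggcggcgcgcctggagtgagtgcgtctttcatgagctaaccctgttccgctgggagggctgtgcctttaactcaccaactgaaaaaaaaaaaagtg
Postn, outer start: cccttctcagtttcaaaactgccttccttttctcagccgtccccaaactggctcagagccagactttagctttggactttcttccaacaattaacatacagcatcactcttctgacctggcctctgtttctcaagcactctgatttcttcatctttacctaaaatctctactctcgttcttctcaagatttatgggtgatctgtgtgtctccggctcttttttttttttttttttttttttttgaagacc
Postn, inner start: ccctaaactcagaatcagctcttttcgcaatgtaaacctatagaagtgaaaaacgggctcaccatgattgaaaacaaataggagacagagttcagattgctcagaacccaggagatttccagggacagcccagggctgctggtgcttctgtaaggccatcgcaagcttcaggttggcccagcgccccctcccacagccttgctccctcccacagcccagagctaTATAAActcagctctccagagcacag
Thbs2: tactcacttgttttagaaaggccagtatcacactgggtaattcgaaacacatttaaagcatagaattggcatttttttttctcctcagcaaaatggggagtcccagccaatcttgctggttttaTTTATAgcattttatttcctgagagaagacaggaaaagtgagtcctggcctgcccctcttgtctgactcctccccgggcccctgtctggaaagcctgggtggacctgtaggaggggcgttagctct
Thbs3: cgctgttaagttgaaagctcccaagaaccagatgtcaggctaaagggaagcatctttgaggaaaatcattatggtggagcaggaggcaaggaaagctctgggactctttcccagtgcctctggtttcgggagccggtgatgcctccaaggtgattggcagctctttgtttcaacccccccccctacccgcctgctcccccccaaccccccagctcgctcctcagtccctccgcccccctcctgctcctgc
Sparc: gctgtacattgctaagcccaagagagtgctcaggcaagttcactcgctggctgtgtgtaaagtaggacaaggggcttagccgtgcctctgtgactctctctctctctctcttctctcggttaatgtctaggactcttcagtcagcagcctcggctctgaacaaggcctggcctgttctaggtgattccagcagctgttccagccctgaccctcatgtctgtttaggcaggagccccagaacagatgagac
Of 32851 such windows in the table, 12.4% hold TATAAA, 7.02% the STAT motif, 6.75% the AP-1 motif and 12.6% the TEAD motif. TATAAA began 26 bases before the inner start of Postn, and 126 bases before the outer start of Tnc and, on the other strand, the start of Thbs2. Tnc also has an inner start, whose window is not printed, and TATAAA began 205 bases before it. A match is a description of letters, and its absence says only that these letters are not in the window.

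Scaling of the arrays bore on the comparisons with fresh cells more than on that between the cultures. Centring each array on its median moved the median over all genes of the log2 ratio of the +OSM to the −OSM culture from -0.01 to 0.15. In fresh cells over the −OSM culture it went from 0.14 to -0.37, and to -0.10 after quantile normalization, and in the +OSM culture over fresh cells from -0.14 to 0.57 and to 0.07. Of genes at least 2-fold apart, 58.0% were higher with OSM as deposited and 72.0% after centring. For fresh cells over the −OSM culture this share was 57.6%, 29.8% after centring and 46.6% after quantile normalization, and for the +OSM culture over fresh cells it was 44.5%, 80.4% and 54.8%. Postn, Tnc, Fn1, Thbs2 and Thbs3 were at least 2-fold higher with OSM under either scaling, and Postn, Thbs3, Fn1 and Thbs2 at least 2-fold higher in fresh cells than in the −OSM culture. The log2 ratio of Sparc with OSM was above 0 under both scalings, at 0.01 and 0.14.

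**Figure D4:**
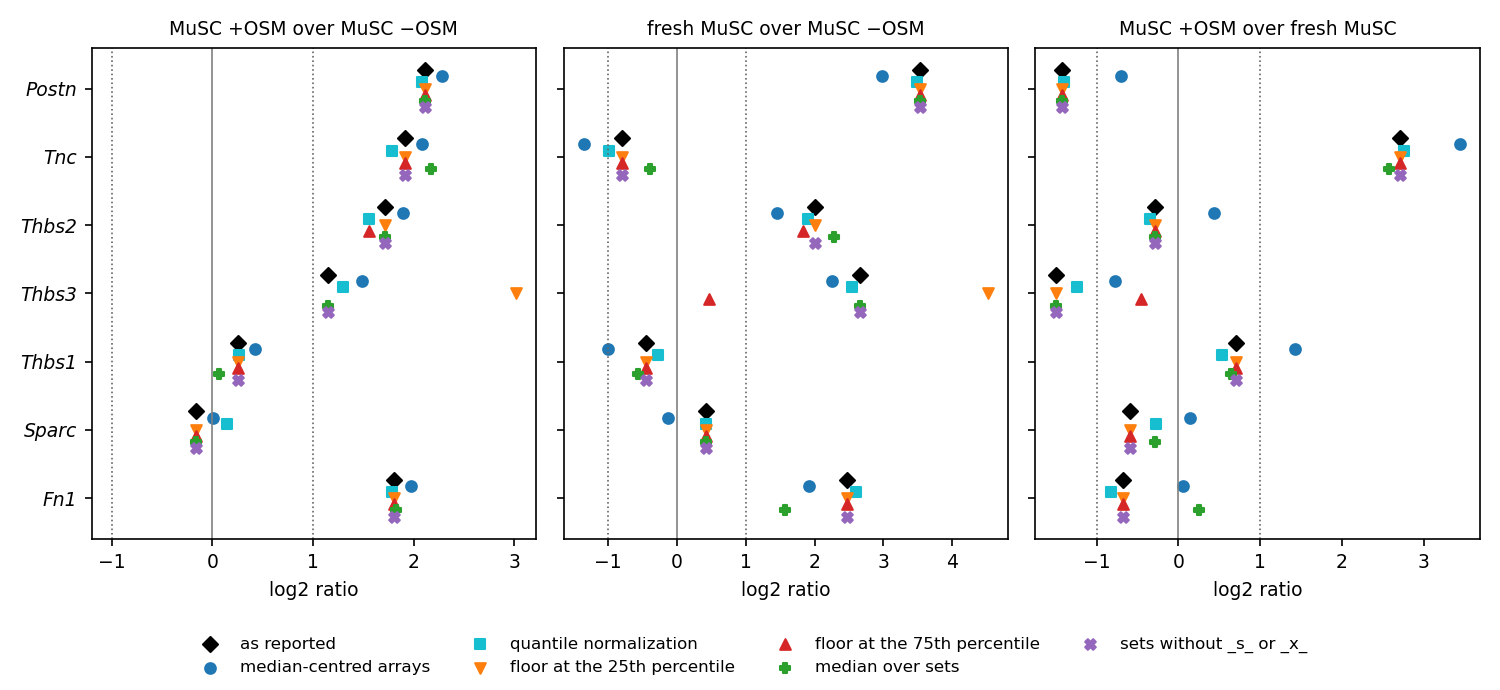
Log2 ratio of each gene in the 3 comparisons as reported (black diamonds) and under 6 alternatives of scaling, floor and probe set (colors and shapes as in the key), with dotted lines at 2-fold. With OSM, Postn, Tnc, Fn1 and Thbs2 stay between 1.55 and 2.28 under all of them, whereas Thbs3 reaches 3.02 with a lower floor and has no value with the floor at the 75th percentile. Leaving out sets with _s_ or _x_ in their name could not change any of these values.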

How the data were processed

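RNA of 3 samples of sorted mouse MuSC was amplified with Affymetrix 3′ IVT Express reagents and hybridized to MOE_430_2 arrays. The authors deposited MAS5 signal intensity on a linear scale in whole numbers (MAS5 version not given in the sources used here). Ratios of these intensities were taken with numpy 2.4.6 and pandas 2.3.3 (Python 3.11.15), and figures drawn with matplotlib 3.10.9. Without the 64 control sets, 45037 probe sets were used. The annotation names 1 gene for 34945 sets, several for 932 and none listed for 9160. A gene was called higher or lower at a ratio of at least 2-fold. With 1 array per condition no test was run. The ratio and the 2-fold call were run on simulated signals with changes set beyond 2-fold and little noise. This checks the code of those steps alone and does not measure how reliable a call on real arrays is.

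The genes, the related lists, the markers and the motifs were chosen with earlier results of these data known. Besides the 8 genes, the rule for named genes took up to 4 genes of each list with the largest ratio with OSM, all genes past 2-fold where they were 5 or fewer, 3 nearest genes by pattern, and Socs3 and Osmr. The rule also covered the cell type markers but was not followed in full for them. Csf1r, Adgre1, Cspg4, Sox10, S100b, Mbp and Itga2b, which it took, are given no single values here. Other genes named from the lists, among them Thbs4, Sparcl1, Lgals1, Lgals3, Sdc4, Itgb1, Itga5, Itgav and the single cell type markers, were chosen after their values were seen. Alternatives were the scaling, the floor, the choice of probe set and a 3-fold threshold.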

Additional observations from a re-analysis of the deposited data

How the results depend on the processing

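The count of 5 genes at least 2-fold higher with OSM was 4 with the floor at the 75th percentile, a signal of 183, where Thbs3 is no longer measured, and 4 at a 3-fold threshold. It was 5 under the other 5 alternatives. Among these, leaving out sets with _s_ or _x_ in their name and lowering the floor could not have changed it. The count of 4 genes higher in fresh cells than in the −OSM culture ran from 3 to 4. After centring the arrays on their medians, 2 genes, Tnc and Thbs1, were at least 2-fold lower in fresh cells than in the −OSM culture, in place of 0. Of all genes, 28.1% were then lower in that comparison and 11.9% higher. In the +OSM culture over fresh cells, centring gave 2 genes higher, Tnc and Thbs1, and 0 lower, beside 33.7% and 8.23% of all genes. The count of 2 lower genes in this comparison was 1 with the floor at the 75th percentile and 0 at the 3-fold threshold. Its median log2 ratio turned from -0.59 to 0.14 with centring, and the median in fresh cells over the −OSM culture dropped from 2.01 to 0.46 with the higher floor. Fn1 in fresh cells over the −OSM culture was 1.57 in place of 2.48 with the median over probe sets. Of the values of single genes under the alternatives, 112 stayed within 1.5-fold of the value reported, and 13 did not. Part of the 112 could not move, so the count does not measure stability. Leaving out probe sets with _s_ or _x_ in their name returned the reported values, as no main set has it. The median over sets could not change Postn and Thbs3, which have 1 set each. The lower floor could change Thbs3 alone. Among assembly partners 5 were higher with OSM by the median over probe sets, in place of 9. No paired analysis was possible because each condition has 1 array. Leaving out an array leaves no comparison.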
